A study of Mus musculus with 32 samples.

Results

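Epididymal white fat (eWAT), a visceral depot, was compared with inguinal white fat (iWAT), a subcutaneous depot, by RNA sequencing of obese mice that received no drug. The 8 libraries of these depots from vehicle-treated mice, 4 of eWAT and 4 of iWAT, were taken from the 32 libraries of the series. Every gene with a mean of 0.5 FPKM or more over the 8 libraries was tested, which kept 13580 of the 54532 genes in the deposited table. FPKM is a read count divided by gene length and by a library size. The mice were wild-type C57Bl/6 animals (strain label C57/Bl6j) that had eaten a diet with 60% fat for 12 weeks before 4 weeks of vehicle, given 3 times per week. All groups shared that diet, so no lean animal enters the comparison. The other libraries came from mice given auranofin, a gold-containing thioredoxin reductase inhibitor, at 1 mg/kg on the same schedule, and from liver and interscapular brown fat (BAT). The labels do not say whether the 4 libraries of a group came from separate mice, so p-values measure the spread between these libraries, which may be technical. Age and sex were not given in the sources used here.

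White fat depots differ in embryonic origin, in the cells around the adipocytes and in how they store fuel. Visceral depots are covered by mesothelium, a sheet of cells that subcutaneous fat lacks, and the depots keep distinct sets of homeobox transcription factors in adult life. In diet-induced obesity, epididymal fat is known for the entry of macrophages that gather around dying adipocytes and take up their lipid. Adipocytes themselves store triglyceride, release fatty acids through lipolysis, and secrete hormones such as leptin and adiponectin.

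Between the depots 5085 of 13580 genes passed the test (37.4%, limma with Benjamini-Hochberg adjusted p under 0.05). Of these, 2381 were higher in eWAT (17.5% of those tested) and 2704 were higher in iWAT (19.9%). A log2 difference of 1 or more was found for 852 of the genes higher in eWAT and 734 of those higher in iWAT. The 4 values of 1 depot lay wholly above those of the other in 5505 genes (40.5%). Every log2 difference is eWAT minus iWAT on the log2(FPKM + 1) scale with its standard error, and on that scale the change of a low gene is understated. In these bulk libraries, fewer cells of a type and less RNA per cell cannot be told apart.

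The balance between the directions depended on how the libraries were scaled. With values rescaled to the same sum in every library (TPM scale), 4980 genes were higher in eWAT (36.7%) and 925 in iWAT (6.81%), and the median difference of all genes moved from -0.03 to 0.35. Quantile normalisation gave 1940 (14.3%) and 2222 (16.4%). Differences are given below on the authors' scaling, and values on the TPM scale are added where they end the call of a named gene in the text below or turn the balance of a list. The number of reads was even, with 16015264 to 18337278 rebuilt reads in each library, and 19839 to 22495 genes had at least 1. The library size behind the FPKM values was not. It was 20800371 to 24013795 in eWAT and 17251599 to 20272361 in iWAT, without overlap. That size followed the median ratio of the genes of a library to their geometric mean over the 32 libraries. On the first principal component, which held 60.9% of the variance, the 4 iWAT libraries lay between 37.3 and 47.6, eWAT libraries 1 and 2 at -59.5 and -58.9, and eWAT libraries 3 and 4 at -24.3 and -20.9. eWAT libraries 1 and 2 thus stood apart from the other eWAT libraries in the direction away from iWAT. With eWAT libraries 3 and 4 alone against iWAT, 5829 genes passed (20.3% of those tested higher in eWAT and 22.6% in iWAT), 4322 of them also called with all 8 libraries in the same direction, and every gene called with all 8 kept its sign. That fit reused libraries of the main fit, so shared calls and signs were in part fixed in advance. eWAT libraries 3 and 4 were also the most alike of their depot (correlation 0.981), which lowers the spread used in the test.

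Developmental transcription factors separated the depots in both directions. Hoxc10, a posterior homeobox factor (chromosome 15, 102966796 to 102971893 on mm10, plus strand), was at 0.0436, 0.126, 0.788 and 0.0489 FPKM in eWAT libraries 1 to 4 and at 14.8, 14.8, 15.1 and 10.7 FPKM in iWAT libraries 1 to 4. It was near the floor in eWAT and well read in iWAT, with a log2 difference of -3.59 ± 0.20 (adjusted p = 7.1e-05, limma). Hoxa10, its paralogue in another Hox cluster, showed 0.0382, 0.0588, 0.697 and 0.0571 FPKM in eWAT against 9.93, 9.80, 8.97 and 10.4 FPKM in iWAT (difference -3.18 ± 0.17, adjusted p = 7.0e-05, limma). In both genes eWAT library 3 was the highest of its depot and still far under every iWAT library. Shox2, a homeobox factor of limb development, had 0.0880, 0.232, 0.0519 and 0.141 FPKM in eWAT and 4.51, 5.96, 8.81 and 4.01 FPKM in iWAT, a difference of -2.55 ± 0.20. Tbx15, a T-box factor known as a marker of subcutaneous fat, had no read in eWAT library 1 and 0.0128, 0.0344 and 0.0249 FPKM in the others, against 2.57, 2.93, 4.16 and 4.11 FPKM in iWAT (difference -2.11 ± 0.14). Lhx8, a LIM-homeobox factor, was likewise under 0.12 FPKM in each eWAT library and at 1.81 to 4.20 FPKM in iWAT (difference -2.05 ± 0.19).

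The reverse pattern was found for factors of visceral mesoderm. Wt1, the Wilms tumour factor that marks visceral fat precursors and mesothelium (chromosome 2, 105126529 to 105173616 on mm10), was at 2.71, 2.54, 2.10 and 1.53 FPKM in eWAT, had no read in iWAT libraries 1 to 3 and was at 0.0796 FPKM in iWAT library 4. Its difference was 1.64 ± 0.14 (adjusted p = 4.5e-04, limma). Tcf21, a basic helix-loop-helix factor of visceral mesenchyme, was at 1.93, 0.921, 2.18 and 2.88 FPKM in eWAT and was listed at 0 in every iWAT library (difference 1.53 ± 0.20). Both genes thus separated the depots in all 8 libraries at low levels. Nr2f1, an orphan nuclear receptor, was lower still but also separate, at 0.954 to 1.25 FPKM in eWAT and 0.126 to 0.307 FPKM in iWAT (0.74 ± 0.11). En1, a homeobox factor of dorsal skin and its underlying mesenchyme, did not reach the filter and was at 0.0183 to 0.143 FPKM in eWAT and 0.470 to 0.962 FPKM in iWAT.

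Within the Hox clusters, which set position along the body axis in the order of their genes, the direction changed with the gene. Of 39 Hox genes, 20 were tested, 3 were higher in eWAT and 8 in iWAT, with a median difference of -0.37 beside -0.03 over all genes. The anterior members Hoxa5 and Hoxc4 were higher in eWAT, at 3.33 to 4.15 against 1.73 to 2.34 FPKM for Hoxa5 (0.66 ± 0.11) and at 2.79 to 4.65 against 1.18 to 2.01 FPKM for Hoxc4 (0.86 ± 0.16). Later members of the same cluster were higher in iWAT, with log2 differences of -1.30 for Hoxc5, -0.79 for Hoxc6, -1.0 for Hoxc8 and -2.10 for Hoxc9. Hoxa9 was higher in iWAT as well, at 1.91 to 3.68 FPKM against 0.0418 to 0.462 FPKM (-1.73 ± 0.19). Hoxc9 was at 1.25, 0.455, 1.68 and 1.35 FPKM in eWAT and 9.57, 6.07, 8.87 and 8.34 FPKM in iWAT, a fold of 6.94. The calls of Hoxc6 and Hoxc8 were lost on the TPM scale, with adjusted p of 0.070 and 0.078 (limma). The call of Hoxc8 was also lost without iWAT library 1 (-0.92, adjusted p = 0.054, limma) and without iWAT library 3 (-0.89, adjusted p = 0.0505, limma). Over the 24 tested members of a wider list of patterning genes, 11 were higher in eWAT and 10 in iWAT, which became 12 and 4 on the TPM scale. Of those, the surface proteins Thbd (thrombomodulin) and Gpc4 (glypican 4) went opposite ways, 1.31 ± 0.21 and -0.78 ± 0.21. The call of Gpc4 was lost on the TPM scale (adjusted p = 0.16) and without iWAT library 2 (-0.76, adjusted p = 0.055, limma).

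**Figure D1:**
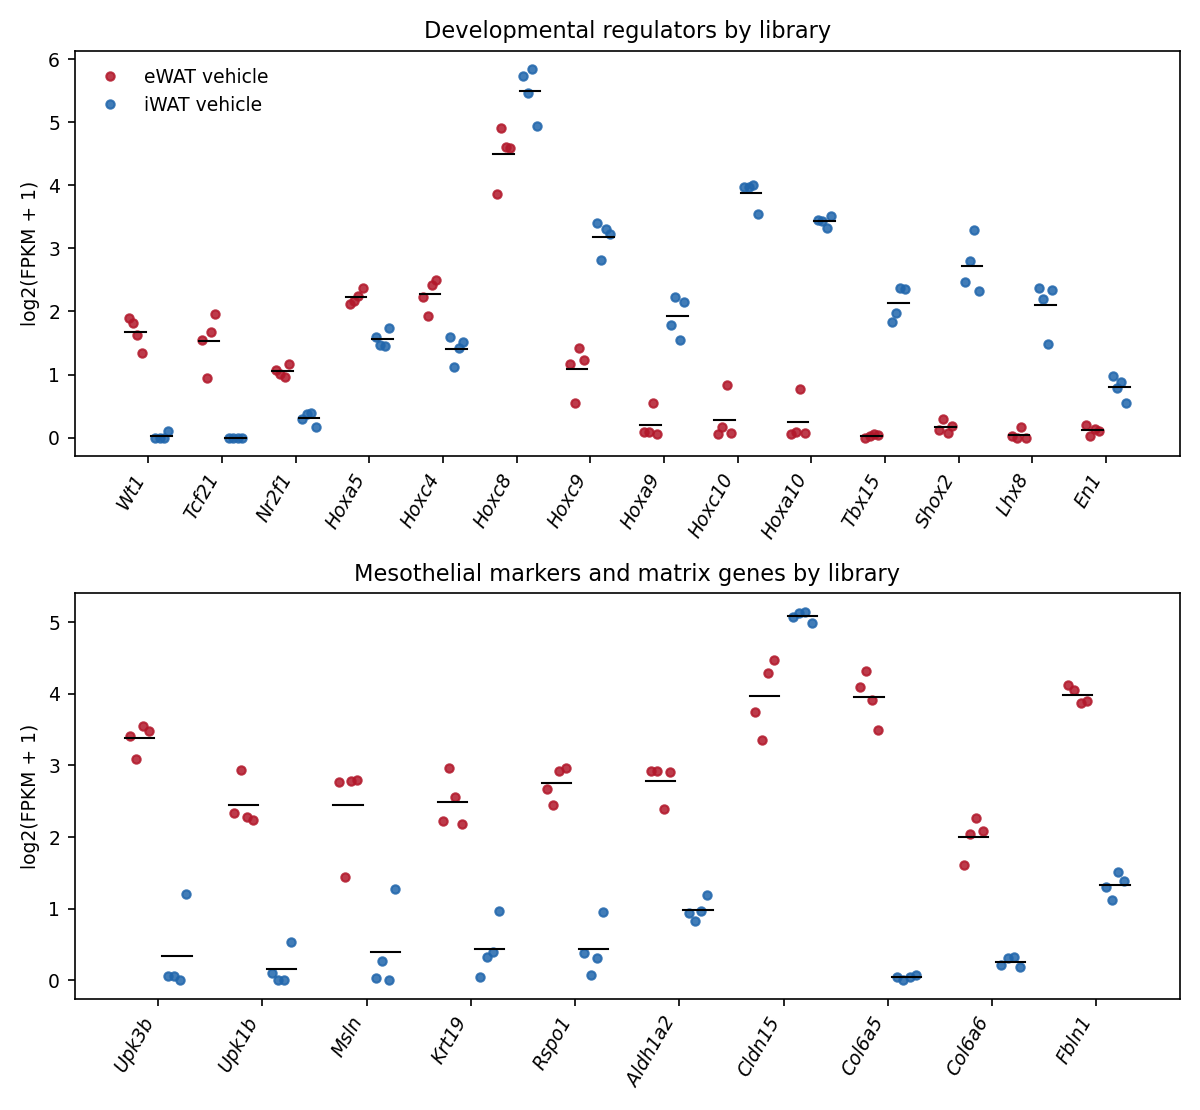
Level of developmental regulators (upper panel) and of mesothelial markers and matrix genes (lower panel) in the 4 eWAT and 4 iWAT vehicle libraries, as log2(FPKM + 1). Each point is 1 library and each bar the mean of 4. Hoxc10, Hoxa10, Tbx15 and Shox2 lie near 0 in eWAT, Wt1 and Tcf21 lie near 0 in iWAT, and Cldn15 is the mesothelial marker that is higher in iWAT.

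Most tested markers of the mesothelium were higher in eWAT. Of 23 markers 17 reached the filter, and of these 14 were higher in eWAT and 1 in iWAT, with a median difference of 2.04. A marker near 0 in iWAT could reach the filter only through eWAT, so the filter favoured these counts and this median. The summed level of the whole list, which needs no filter, was 97.7 to 133 FPKM in eWAT against 41.7 to 53.8 FPKM in iWAT. Cldn15 alone gave 30.7 to 34.4 FPKM of the iWAT sum. Upk3b, a uroplakin of the mesothelial surface, was at 9.67, 7.49, 10.7 and 10.2 FPKM in eWAT and at 0.0456, 0.0451, 0 and 1.31 FPKM in iWAT (3.05 ± 0.27, adjusted p = 4.5e-04, limma). iWAT library 4 was the highest of its depot for Upk3b, and it was so for Upk1b, Msln and Krt19 too. Msln, which encodes mesothelin, was at 5.81, 1.71, 5.86 and 5.92 FPKM in eWAT and 0.0254, 0.201, 0 and 1.42 FPKM in iWAT, so that eWAT library 2 came close to iWAT library 4 (2.05 ± 0.38). Rspo1, a secreted enhancer of WNT signals, was at 4.44 to 6.82 FPKM in eWAT against 0.0548 to 0.942 FPKM (2.32 ± 0.20). Upk1b (2.29 ± 0.19), the keratin Krt19 (2.05 ± 0.23) and the retinoic acid-forming enzyme Aldh1a2 (1.80 ± 0.15) also separated the depots without overlap. Slpi, a protease inhibitor of epithelial surfaces, ranged from 5.99 to 43.2 FPKM in eWAT and from 0.09 to 5.02 FPKM in iWAT (3.37 ± 0.67). Cldn15, a claudin of tight junctions, was the exception, at 9.23 to 21.3 FPKM in eWAT and 30.7 to 34.4 FPKM in iWAT (-1.12 ± 0.23).

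Macrophage genes gave many of the large differences toward eWAT. Of 26 tested macrophage markers 21 were higher in eWAT and none in iWAT, with a median difference of 1.67. Of 27 tested genes of lipid-associated macrophages, the cells that take up lipid in obese fat, 19 were higher in eWAT and 3 in iWAT, with a median of 2.20. Adgre1, which encodes the F4/80 antigen, was at 106, 83.1, 54.0 and 52.8 FPKM in eWAT and 5.04, 12.5, 4.26 and 7.86 FPKM in iWAT, a fold of 9.97 (3.19 ± 0.33, adjusted p = 7.2e-04, limma). Gpnmb, a lysosomal glycoprotein of lipid-laden macrophages (chromosome 6, 49036546 to 49070929 on mm10), was at 368, 323, 119 and 174 FPKM in eWAT against 7.29, 15.8, 4.08 and 5.29 FPKM in iWAT, a fold of 30.3 (4.78 ± 0.45). Mmp12, macrophage elastase, had the widest gap of the named genes, at 298, 279, 37.7 and 72.7 FPKM against 2.98, 7.63, 1.16 and 2.26 FPKM (4.98 ± 0.69). The lowest eWAT library of each of these genes was above the highest iWAT library, and eWAT libraries 1 and 2 were above eWAT libraries 3 and 4.

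Other members of the lipid-associated set had the same order of libraries. Spp1, which encodes the secreted phosphoprotein osteopontin, was at 120, 59.0, 12.4 and 17.5 FPKM in eWAT and at 1.34, 1.67, 1.37 and 0.449 FPKM in iWAT (4.09 ± 0.63). Atp6v0d2, a subunit of the proton pump of lysosomes, was at 111, 168, 33.5 and 44.7 FPKM against 2.0, 7.09, 1.47 and 2.40 FPKM (4.29 ± 0.55). Itgax, which encodes the integrin CD11c, was at 67.3, 62.3, 24.6 and 33.6 FPKM against 2.64, 4.46, 2.10 and 3.13 FPKM (3.47 ± 0.33). Trem2, the lipid-sensing receptor that defines these cells, departed from that order, since eWAT library 1 stood at 71.5 FPKM and libraries 2 to 4 at 22.8, 24.5 and 31.9 FPKM, against 1.62 to 7.21 FPKM in iWAT (3.06 ± 0.43). Mpeg1 (perforin-2, 3.60 ± 0.34), Itgb2 (the shared chain of leukocyte integrins, 3.40 ± 0.37), Cd68 (a lysosomal marker, 3.13 ± 0.41), Csf1r (the receptor for macrophage colony-stimulating factor, 1.98 ± 0.23) and the surface proteinase Adam8 (3.73 ± 0.35) were higher in eWAT as well. Rnf128, a ubiquitin ligase, was at 47.1, 51.7, 8.69 and 12.4 FPKM in eWAT and 0.502 to 1.65 FPKM in iWAT (3.64 ± 0.54).

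These differences were smaller without the libraries that stood apart. With eWAT libraries 3 and 4 alone against iWAT, 20 of the 26 macrophage markers and 19 of the 27 lipid-associated genes were higher in eWAT, with medians of 1.40 and 1.46. The difference of Mmp12 was then 3.76, that of Spp1 2.87 and that of Gpnmb 4.15. The summed level of the macrophage list was 4629, 3906, 2140 and 2119 FPKM in eWAT libraries 1 to 4 and 527 to 793 FPKM in iWAT. That of the lipid-associated list overlapped, at 7187, 5876, 4143 and 4729 FPKM in eWAT and 4232 to 5113 FPKM in iWAT. Not every macrophage gene was higher in eWAT. Mgl2, a lectin of resident macrophages, was at 4.36 to 11.8 FPKM in eWAT and 8.87 to 22.9 FPKM in iWAT and did not pass (-0.59 ± 0.33, adjusted p = 0.19, limma). Acp5, tartrate-resistant acid phosphatase, and the fatty acid-binding protein Fabp5 are members of the lipid-associated list that were higher in iWAT, with log2 differences of -1.64 and -0.94, as was the lipoprotein lipase gene Lpl (-0.93). The call of Fabp5 was lost on the TPM scale (-0.51, adjusted p = 0.060, limma), and of these 3 genes Acp5 alone was called there (-1.21).

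Spi1, which encodes PU.1, the master factor of macrophages, was at 40.0, 23.0, 22.1 and 24.5 FPKM in eWAT and 6.75, 8.19, 5.18 and 8.64 FPKM in iWAT (1.77 ± 0.22). Of other transcription factors named after their values were seen, Irf5, an interferon regulatory factor of inflammatory macrophages, differed by 1.93 ± 0.27, and Mitf, a factor of lysosomal genes, by 1.44 ± 0.23. Because PU.1 binds purine-rich sites, the 250 bases before the gene start in the RefSeq table (GRCm38.p6) were searched on both strands for GAGGAAGT, a core of its site. It was found in 39 of 568 promoters (6.87%) of genes higher in eWAT by a log2 difference of 1 or more and in 2 of 499 (0.4%) of genes higher in iWAT by as much. It was in 251 of 9799 promoters of all tested genes (2.56%) and in 478 of 20507 promoters of the table (2.33%). A match is a description of letters and not a measured site, and no test was made of these shares.

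Of the 18 macrophage markers with a promoter in the table, 1 held the motif (5.56%). Of 21 cytokine and chemokine genes and of 8 MHC class II and antigen-presentation genes, 0 did. Of the 21 lipid-associated macrophage genes with a promoter in the table, 3 held the motif (14.29%), Mmp12, Spp1 and Nceh1. C1qc, a complement subunit made by macrophages, is shown beside them as a resident macrophage product. It is among the 39 genes higher in eWAT that held the motif and was chosen after its values were seen. It is thus an example and not a separate case. The sequences read 5′ to 3′ on the strand of the gene and end at the base before the RefSeq start, and capitals mark the motif or its reverse complement. They lie at chr9:7344147-7344396 (plus strand), chr5:104434861-104435110 (plus strand), chr3:27182754-27183003 (plus strand) and chr4:136892915-136893164 (minus strand). The first base of the match lies 88 bases before the start in Mmp12, 113 in Spp1, 73 in Nceh1 and 195 in C1qc.
Mmp12: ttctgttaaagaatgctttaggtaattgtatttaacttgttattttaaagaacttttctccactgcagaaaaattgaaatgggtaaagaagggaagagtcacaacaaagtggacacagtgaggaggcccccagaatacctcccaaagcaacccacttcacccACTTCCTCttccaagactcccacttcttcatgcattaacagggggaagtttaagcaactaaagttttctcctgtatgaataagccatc
Spp1: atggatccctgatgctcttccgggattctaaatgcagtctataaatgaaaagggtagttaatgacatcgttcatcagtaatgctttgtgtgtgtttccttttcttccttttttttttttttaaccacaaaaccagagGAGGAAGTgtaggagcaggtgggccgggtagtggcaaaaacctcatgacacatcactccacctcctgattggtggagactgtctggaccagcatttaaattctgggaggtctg
Nceh1: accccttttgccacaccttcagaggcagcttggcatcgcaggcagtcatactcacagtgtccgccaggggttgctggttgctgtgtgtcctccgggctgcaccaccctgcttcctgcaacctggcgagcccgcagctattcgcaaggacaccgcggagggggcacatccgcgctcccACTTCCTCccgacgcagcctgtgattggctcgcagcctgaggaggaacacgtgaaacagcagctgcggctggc
C1qc: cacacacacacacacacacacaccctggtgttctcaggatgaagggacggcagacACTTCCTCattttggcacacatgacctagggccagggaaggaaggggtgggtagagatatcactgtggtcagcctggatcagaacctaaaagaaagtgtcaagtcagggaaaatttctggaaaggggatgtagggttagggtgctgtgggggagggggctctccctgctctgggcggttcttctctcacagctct
Nceh1, a cholesteryl ester hydrolase, was at 27.7, 25.0, 9.32 and 12.6 FPKM in eWAT and 0.684 to 2.29 FPKM in iWAT (2.97 ± 0.35). C1qc was at 228, 93.7, 141 and 131 FPKM in eWAT and 33.0 to 61.4 FPKM in iWAT (1.62 ± 0.30). The E-box CACGTG, the M-box TCATGTG, the C/EBP motif TTGCNNAA and the TATA box TATAAA were searched in the same windows, and none of the 5 motifs contains another. The E-box was in 6.87% of promoters of the genes higher in eWAT and 8.82% of those higher in iWAT, beside 8.43% of all tested. The C/EBP motif was in 11.8% and 9.62%, beside 7.7%.

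Chemokines and antigen-presentation genes added to the eWAT side. Of 30 tested cytokine and chemokine genes 13 were higher in eWAT and 2 in iWAT, with a median of 0.57. Ccl9, a chemokine of myeloid cells, was at 218, 157, 75.6 and 77.3 FPKM in eWAT and 14.8 to 31.3 FPKM in iWAT (2.39 ± 0.38). Il1rn, the interleukin 1 receptor antagonist, was at 3.82 to 16.9 FPKM against 0.0419 to 0.757 FPKM (2.68 ± 0.41), and the chemokines Ccl3 (1.95 ± 0.36) and Cxcl16 (1.30 ± 0.18) were also higher. Ccl2, the main chemokine for monocytes, overlapped between the depots, at 60.7, 21.4, 23.3 and 22.0 FPKM in eWAT and 12.5, 15.3, 5.25 and 26.7 FPKM in iWAT, and did not pass (1.08 ± 0.47, adjusted p = 0.10, limma). Ccl2 did pass without iWAT library 4 (1.41, adjusted p = 0.048, limma) and on the TPM scale (1.57, adjusted p = 0.036). Cxcl14 was higher in iWAT, at 15.0 to 18.6 FPKM against 3.13 to 9.57 FPKM (-1.61 ± 0.26).

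Of 11 MHC class II and antigen-presentation genes, 7 were higher in eWAT and none in iWAT, with a median of 0.93. H2-Aa, a class II chain, was at 357, 303, 290 and 266 FPKM in eWAT and at 148, 136, 104 and 104 FPKM in iWAT (1.31 ± 0.17). The eWAT libraries lay close to each other for this gene, unlike for Ctss, the cathepsin that trims the class II chaperone, at 1029, 1109, 339 and 384 FPKM against 40.4 to 88.7 FPKM (3.46 ± 0.43). The class II transactivator Ciita (0.93 ± 0.15) and the invariant chain Cd74 (1.01 ± 0.19) were higher in eWAT. Among single complement genes, C3, the central complement protein, was at 332, 461, 303 and 294 FPKM against 45.6 to 51.2 FPKM (2.80 ± 0.17, adjusted p = 1.3e-04, limma), and C7, a part of the membrane attack complex, at 22.7, 71.4, 53.7 and 37.7 FPKM against 1.13 to 5.0 FPKM (3.74 ± 0.39).

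Jchain, the joining chain of polymeric antibodies, was at 23.0, 92.5, 41.1 and 22.2 FPKM in eWAT and 2.37, 0.675, 0.161 and 3.47 FPKM in iWAT (4.05 ± 0.54, adjusted p = 1.3e-03, limma). Of 10 tested immunoglobulin constant genes 1 was higher in eWAT. Of 218 immunoglobulin variable genes 104 reached the filter, and no count of calls is read from them because each had its higher mean in eWAT, which the filter favoured. Reads of such near-identical genes may be split. Igkc, the kappa constant gene, was at 429, 2822, 1156 and 399 FPKM against 156, 39.5, 2.94 and 108 FPKM (4.41 ± 1.13), and its call was lost with eWAT libraries 3 and 4 alone (4.07, adjusted p = 0.058, limma). Ighm, the mu heavy chain, was at 287, 788, 832 and 433 FPKM in eWAT and 621 to 749 FPKM in iWAT and did not pass (-0.41 ± 0.33, 0.03 on the TPM scale). The B cell and lymph node list had 4 of 14 members higher in eWAT, and its mean log2 level was 3.69 in eWAT library 3 and 3.22 in iWAT library 1 against 1.10 to 1.71 in the other iWAT libraries, a spread whose part in these results was not tested. Of 14 tested T and NK cell markers 1 was higher in eWAT. The mast cell genes Tpsb2 (1.92 ± 0.61) and Fcer1a (1.83 ± 0.58) were higher in eWAT with eWAT library 2 the highest, at 171 and 19.7 FPKM. The calls of both were lost with eWAT libraries 3 and 4 alone (adjusted p = 0.166 for Tpsb2 and 0.0534 for Fcer1a, limma). Leaving out any iWAT library or eWAT library 1 ended the call of Fcer1a (adjusted p between 0.0516 and 0.0916). Leaving out iWAT library 1 or 2 or eWAT library 1 or 2 ended that of Tpsb2 (adjusted p between 0.059 and 0.0924), as did a fit with the replicate block (adjusted p = 0.0567, limma).

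Adipocyte genes ran the other way. Of 30 tested genes of adipocyte identity and lipid storage 23 were higher in iWAT and none in eWAT, with a median of -1.10. Adipoq, which encodes adiponectin, was at 596, 1070, 1395 and 1571 FPKM in eWAT and at 3021, 2792, 3040 and 2864 FPKM in iWAT, a fold of 2.53 toward iWAT (-1.43 ± 0.29, adjusted p = 6.1e-03, limma). Agpat2, an acyltransferase of triglyceride synthesis, was at 83.7, 97.7, 168 and 163 FPKM against 334 to 501 FPKM (-1.74 ± 0.26). The fatty acid-binding protein Fabp4 (-1.37 ± 0.26), the lipid droplet coat protein Plin1 (-1.24 ± 0.30) and the droplet assembly protein seipin, Bscl2 (-1.12 ± 0.20), were higher in iWAT as well. In this list eWAT libraries 1 and 2 were the lowest, with mean log2 levels of 5.61 and 5.96, followed by 6.52 and 6.60 in eWAT libraries 3 and 4 and 7.15 to 7.22 in iWAT. The macrophage list ran in the opposite order over the same libraries, and its part in the adipocyte values was not tested. Pparg, the master factor of adipocytes, was at 30.6, 55.6, 38.5 and 42.1 FPKM against 93.9, 79.1, 68.0 and 53.7 FPKM (-0.81 ± 0.22), and Slc2a4, the insulin-responsive glucose carrier, at 7.28, 7.09, 25.7 and 28.6 FPKM against 35.4 to 48.3 FPKM (-1.53 ± 0.44).

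How many of these genes passed depended on scaling. On the TPM scale 6 of the 30 were higher in iWAT and none in eWAT, with a median of -0.68 beside 0.35 for all genes, and quantile normalisation also left 6. Without iWAT library 1, 13 were higher in iWAT. The calls of Plin1, Pparg and Slc2a4 were lost on the TPM scale (adjusted p = 0.053, 0.14 and 0.071, limma). They were also lost under quantile normalisation (adjusted p = 0.12, 0.17 and 0.063, limma), as were those of Adipoq and Fabp4 (adjusted p = 0.18 and 0.22). Pparg was also lost without iWAT library 1 (-0.68, adjusted p = 0.062), without iWAT library 2 (-0.77, adjusted p = 0.0605) and without eWAT library 1 (-0.68, adjusted p = 0.052, limma). Slc2a4 was lost when iWAT library 1, 3 or 4 or eWAT library 1 was left out, with adjusted p between 0.0555 and 0.0639 (limma). With eWAT libraries 3 and 4 alone, 23 of the 30 were higher in iWAT and none in eWAT, with a median of -0.66.

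**Figure D2:**
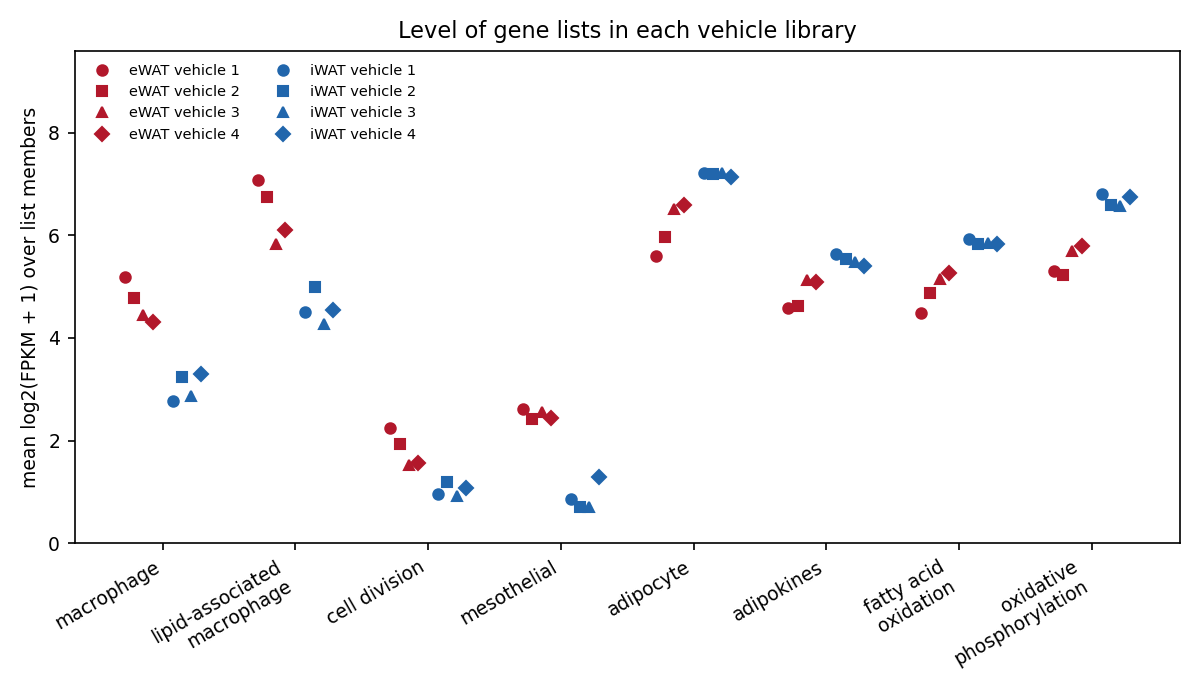
Mean log2(FPKM + 1) over the tested members of 8 gene lists in each of the 8 vehicle libraries, with 1 symbol per library number and 1 colour per depot. The eWAT libraries 1 and 2 are the highest of all in the macrophage lists and the lowest in the adipocyte list (5.61 and 5.96), while the 4 iWAT libraries lie within 7.15 and 7.22 there.

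Secreted adipocyte hormones included some of the largest differences toward iWAT. Of 31 tested adipokine genes 17 were higher in iWAT and 5 in eWAT, with a median of -0.92. The counts were nearly even on the TPM scale, with 9 in iWAT and 8 in eWAT. Retn, which encodes resistin (chromosome 8, 3655770 to 3660110 on mm10), was at 98.6, 146, 203 and 225 FPKM in eWAT and 1288, 1120, 1017 and 866 FPKM in iWAT, a fold of 6.38 (-2.72 ± 0.27, adjusted p = 6.4e-04, limma). Angptl8, an inhibitor of lipoprotein lipase, was at 7.34 to 10.8 FPKM against 128, 194, 46.0 and 53.0 FPKM (-3.12 ± 0.43). Cfd, adipsin, was at 95.9, 106, 495 and 584 FPKM against 2302, 773, 2025 and 1172 FPKM (-2.61 ± 0.65), so both depots varied widely while not overlapping. Lep, leptin, was at 445, 661, 886 and 865 FPKM in eWAT and 1663, 1647, 1548 and 1747 FPKM in iWAT, a fold of 2.31 (-1.26 ± 0.23), and its call was lost under quantile normalisation (-0.69, adjusted p = 0.070, limma). Sncg, gamma-synuclein (-1.66 ± 0.30), and Trf, transferrin (-1.63 ± 0.24), followed the same direction. Among the 5 secreted proteins higher in eWAT were Agt, angiotensinogen, at 5.69 to 15.8 against 0.368 to 3.15 FPKM (2.26 ± 0.39), Metrnl (meteorin-like, 1.42 ± 0.25) and Lcn2 (lipocalin 2, 1.40 ± 0.26).

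Fatty acid synthesis and lipolysis were less uniform. Of 19 tested genes of lipogenesis 8 were higher in iWAT and 2 in eWAT, and of 23 genes of lipolysis and adrenergic signalling 12 were higher in iWAT and 1 in eWAT. The balance of the lipogenesis genes turned on the TPM scale and under quantile normalisation, with 2 higher in iWAT and 4 in eWAT in both, and without iWAT library 1 it was 3 and 2. The lipolysis counts were 7 and 3 on the TPM scale. Slc25a1, the mitochondrial citrate carrier, was at 72.6 to 159 FPKM in eWAT and 294 to 410 FPKM in iWAT (-1.62 ± 0.26), and Me1, malic enzyme, differed by -1.07 ± 0.23. The call of Me1 was lost under quantile normalisation (-0.57, adjusted p = 0.071, limma). Scd1, stearoyl-CoA desaturase, was at 1032, 2288, 1949 and 2671 FPKM against 3159 to 3933 FPKM (-0.96 ± 0.29), with the sign turned under quantile normalisation (0.05) and the call lost on the TPM scale (-0.52, adjusted p = 0.15, limma) and without any single iWAT library or eWAT library 3 (adjusted p between 0.0528 and 0.0805). A fit with the replicate block also ended it (adjusted p = 0.0505, limma). Fasn, fatty acid synthase, was at 70.1, 111, 154 and 189 FPKM against 164 to 243 FPKM and did not pass (-0.71 ± 0.30, adjusted p = 0.092, limma), but did so without eWAT library 4 (-0.92, adjusted p = 0.036). The desaturases Fads1 and Fads2 were the 2 members higher in eWAT (0.83 ± 0.19 and 0.96 ± 0.19). Pnpla2, the adipose triglyceride lipase, was at 164, 174, 335 and 404 FPKM against 639 to 703 FPKM (-1.44 ± 0.30), its co-activator Abhd5 differed by -0.80 ± 0.14, and the anti-lipolytic receptor Hcar2 by -0.92 ± 0.16. Adcy3, an adenylate cyclase, was the member higher in eWAT (0.80 ± 0.15).

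Adrb3 and Pck1 overlapped between the depots. Adrb3, the beta-3 adrenergic receptor, was at 14.5, 5.75, 26.4 and 48.4 FPKM in eWAT and 18.7, 15.8, 15.1 and 8.77 FPKM in iWAT (0.36 ± 0.54, adjusted p = 0.62, limma). With eWAT libraries 3 and 4 alone it was higher in eWAT (1.29, adjusted p = 0.021, limma), and without eWAT library 4 its difference was -0.09. Pck1, phosphoenolpyruvate carboxykinase, was at 39.3, 59.2, 118 and 212 FPKM in eWAT against 345, 179, 410 and 129 FPKM in iWAT (-1.44 ± 0.55, adjusted p = 0.068, limma) and passed without eWAT library 4 (-1.86, adjusted p = 0.021). Of 19 tested thermogenic and beige-fat genes 9 were higher in iWAT and 2 in eWAT. Cox8b, a cytochrome oxidase subunit of brown and muscle cells, was at 18.5, 5.21, 47.7 and 46.7 FPKM against 94.2 to 151 FPKM (-2.30 ± 0.60). Cidea, a lipid droplet protein of brown fat, was at 0.537, 3.35, 6.61 and 6.46 FPKM against 9.58 to 25.8 FPKM (-2.06 ± 0.52), while BAT vehicle libraries had a mean of 1431 FPKM. Elovl3, a fatty acid elongase (-1.55 ± 0.18), and the potassium channel Kcnk3 (-1.48 ± 0.32) were higher in iWAT, and Ckb, brain-type creatine kinase (1.63 ± 0.24), and the factor Ebf2 (0.81 ± 0.15) in eWAT. Ucp1, the uncoupling protein of brown fat, was at 0.0649 to 0.441 FPKM in the 8 libraries, below the filter, beside a mean of 2506 FPKM in BAT.

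Mitochondrial genes formed the broadest difference toward iWAT. Of 74 nuclear genes of oxidative phosphorylation, all of them tested, 69 were higher in iWAT and none in eWAT, with a median of -1.17. Ndufs4, a subunit of complex I, was at 18.3, 22.0, 16.9 and 17.8 FPKM in eWAT and 58.0, 52.2, 53.5 and 45.7 FPKM in iWAT, a fold of 2.79 (-1.44 ± 0.13, adjusted p = 5.5e-04, limma). Cox4i1, of cytochrome oxidase, was at 191 to 260 FPKM against 622 to 714 FPKM (-1.48 ± 0.15), and Atp5l, of ATP synthase, at 7.95 to 10.2 FPKM against 22.7 to 25.8 FPKM (-1.35 ± 0.11). Over the whole list the mean log2 level was 5.30 and 5.22 in eWAT libraries 1 and 2, 5.70 and 5.79 in eWAT libraries 3 and 4, and 6.57 to 6.81 in iWAT. On the TPM scale 49 of the 74 were higher in iWAT and with eWAT libraries 3 and 4 alone 67, with medians of -0.74 and -0.92, and none was higher in eWAT in either. Of 25 tested genes of fatty acid oxidation 20 were higher in iWAT and none in eWAT (median -0.90), which became 11 and 1 on the TPM scale. Echs1, enoyl-CoA hydratase, was at 11.0 to 20.1 FPKM in eWAT against 39.0 to 47.8 FPKM in iWAT (-1.43 ± 0.19), and Acat1, a thiolase, differed by -1.32 ± 0.20. Cpt1a, the entry enzyme for fatty acids in liver, was at 33.6 to 46.4 FPKM against 26.8 to 34.5 FPKM and did not pass (0.27 ± 0.14), but was higher in eWAT on the TPM scale (0.72, adjusted p = 5.1e-03, limma).

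Genes of the mitochondrial genome took the same direction. Of its 13 protein genes 10 were higher in iWAT, with a median of -1.14. mt-Nd6, of complex I, was at 1343, 1530, 1333 and 1363 FPKM in eWAT and 5445, 4756, 3791 and 3710 FPKM in iWAT (-1.65 ± 0.18). mt-Co1, of cytochrome oxidase, was at 6202, 23265, 6434 and 7200 FPKM against 12943 to 15139 FPKM, so eWAT library 2 exceeded every iWAT library while its depot mates lay below them, and the gene did not pass (-0.63 ± 0.41, adjusted p = 0.25, limma). Without eWAT library 2 it passed (-1.08, adjusted p = 3.7e-03). mt-Atp6, whose reading frame overlaps that of its neighbour in the genome, was at 35.4 to 80.8 FPKM against 175 to 456 FPKM (-2.30 ± 0.38). Gene length went with these values: the median difference of protein-coding genes was -0.67 for lengths over 500 and up to 1000 bases, -0.14 over 2000 and up to 4000 bases and 0.09 above 6000 bases. With a trend on length removed, 18.4% of all tested genes were higher in eWAT and 17% in iWAT, and 64 of the 74 nuclear genes and 4 of the 13 mitochondrial genes were still higher in iWAT, with medians of -0.89 and -0.79.

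**Figure D3:**
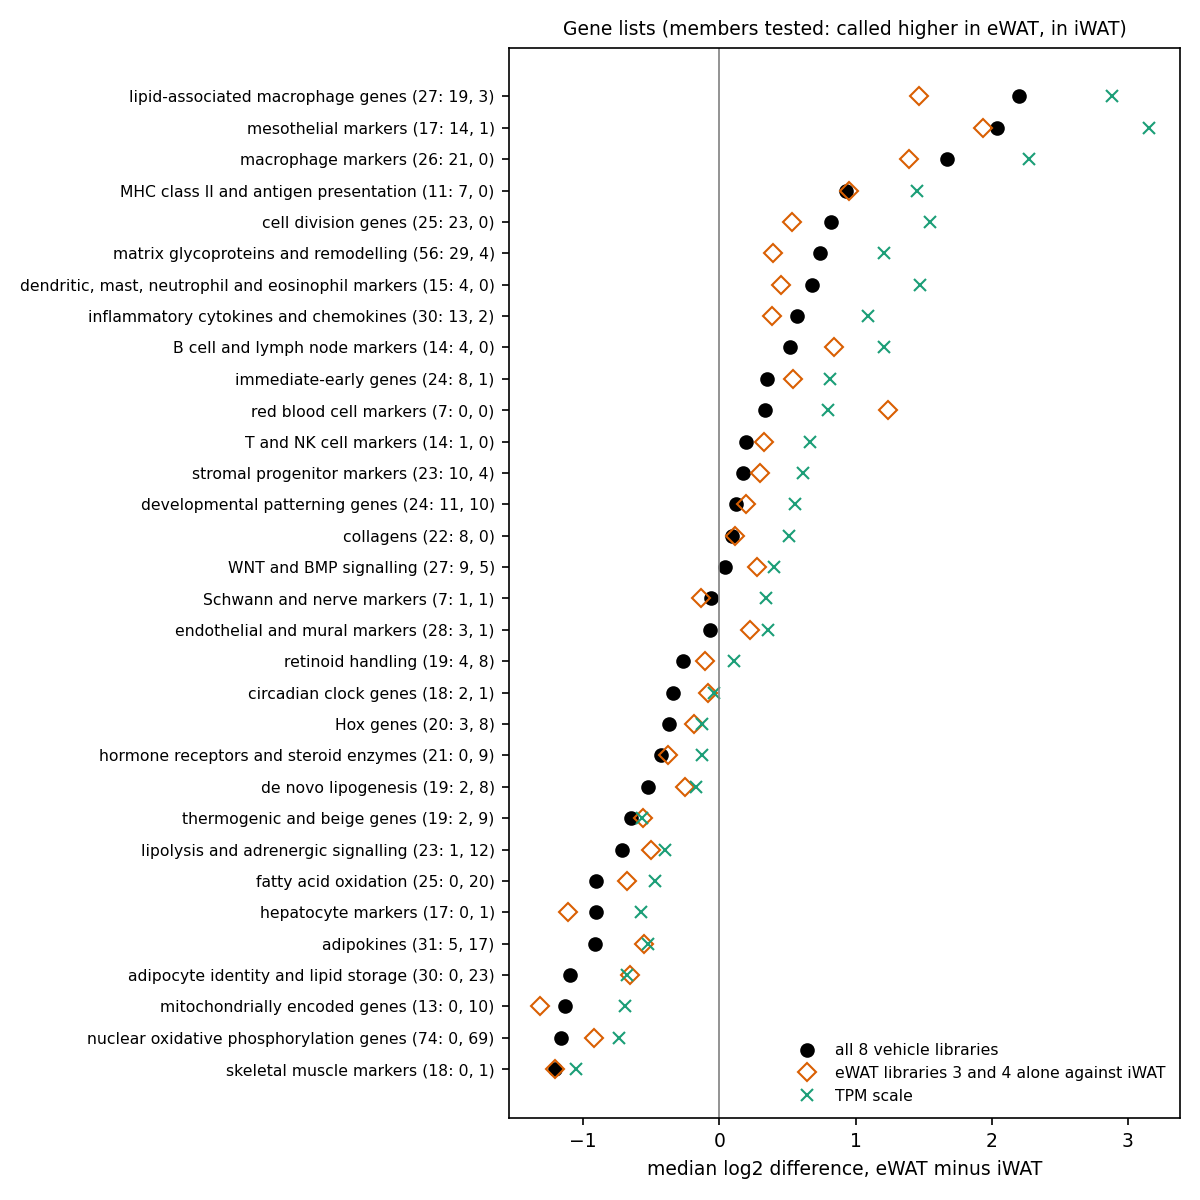
Median log2 difference, eWAT minus iWAT, of each gene list with 5 or more tested members, with all 8 libraries (filled circles), with eWAT libraries 3 and 4 alone (diamonds) and on the TPM scale (crosses). Numbers in brackets give the members tested and those called higher in eWAT and in iWAT. The macrophage and mesothelial lists lie farthest to the right and the oxidative phosphorylation list, with a median of -1.17, far to the left.

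Both classes of extracellular matrix genes had higher mean log2 levels in eWAT, and single genes differed widely within each. Collagens were at 4.221 to 4.466 in eWAT and 3.815 to 4.119 in iWAT. Matrix glycoproteins and remodelling genes were at 3.94 to 4.35 and 3.238 to 3.502. Of 22 tested collagens 8 were higher in eWAT and none in iWAT, yet the median was 0.09, and -0.04 with a trend on gene length removed. Without iWAT library 1, 5 were higher in eWAT. Col6a5, an alpha chain of collagen VI (chromosome 9, 105856078 to 105960643 on mm10), was at 16.1, 19.1, 14.0 and 10.2 FPKM in eWAT and 0.0285, 0, 0.0308 and 0.0524 FPKM in iWAT (3.92 ± 0.17), with an adjusted p of 2.7e-05 (limma), the smallest over all genes tested, shared with Fbln1. Its neighbour Col6a6 was at 2.04 to 3.81 FPKM against 0.135 to 0.253 FPKM (1.74 ± 0.15), and Col6a1 at 147 to 172 FPKM against 62.6 to 73.6 FPKM (1.24 ± 0.12). Col6a3, another alpha chain, was at 21.3 to 24.8 FPKM against 15.6 to 25.6 FPKM (0.18 ± 0.16, adjusted p = 0.40, limma, and 0.62 with adjusted p = 0.023 on the TPM scale). Col1a1, the main fibrillar collagen, was at 51.7 to 82.2 FPKM against 63.1 to 78.5 FPKM and did not pass (-0.09 ± 0.17, 0.34 on the TPM scale).

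Matrix glycoproteins and remodelling genes were higher in eWAT in 29 of 56 tested and in iWAT in 4, with a median of 0.74. Fbln1, fibulin 1, was at 16.5, 15.6, 13.6 and 13.9 FPKM in eWAT and 1.48, 1.18, 1.84 and 1.61 FPKM in iWAT, a fold of 9.75 with little spread in either depot (2.66 ± 0.12, adjusted p = 2.7e-05, limma). Fn1, fibronectin, was at 63.9, 54.8, 45.6 and 41.1 FPKM against 6.43, 9.62, 13.9 and 20.9 FPKM (2.03 ± 0.31), and Timp2, an inhibitor of metalloproteinases, at 156 to 186 FPKM against 35.2 to 65.7 FPKM (1.80 ± 0.19). Timp1, its paralogue, was at 61.4 FPKM in eWAT library 1 and at 8.72, 10.3 and 10.5 FPKM in the others, against 0.967 to 3.56 FPKM in iWAT (2.33 ± 0.57). Lox, lysyl oxidase, which cross-links collagen, was higher in iWAT (-0.98 ± 0.22), a call lost under quantile normalisation (-0.64, adjusted p = 0.054, limma).

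Stromal and signalling lists had members called in both directions. Over all tested genes 17.5% were higher in eWAT and 19.9% in iWAT, and 36.7% and 6.81% on the TPM scale. The iWAT counts of the stromal and of the WNT and BMP lists lie near 19.9%, so they give no result about those lists. On the TPM scale both counts of the WNT and BMP list lie near their shares as well. Of 23 tested markers of stromal progenitors 10 were higher in eWAT and 4 in iWAT, which became 12 and 0 on the TPM scale. Without iWAT library 1 the counts were 7 and 1, and the median of 0.17 became -0.03. The summed level of the whole list went the other way, at 1797 to 3127 FPKM in eWAT and 3247 to 4352 FPKM in iWAT. Pdgfra, the receptor that marks these cells, was at 12.2, 13.0, 6.92 and 8.19 FPKM against 1.70 to 2.75 FPKM (1.71 ± 0.20), and Mgp, matrix Gla protein, at 230, 201, 122 and 129 FPKM against 21.4 to 29.6 FPKM (2.70 ± 0.23). Zfp423, a regulator of preadipocytes, was higher in iWAT (-0.72 ± 0.18), a call lost on the TPM scale (-0.34, adjusted p = 0.16, limma). In WNT and BMP signalling, 9 of 27 were higher in eWAT and 5 in iWAT, which became 11 and 2 on the TPM scale. The secreted WNT antagonists parted: Sfrp1 was at 4.55 to 9.27 FPKM in eWAT against 0.184 to 0.496 FPKM (2.52 ± 0.22), while Sfrp5 was at 53.1, 59.1, 144 and 187 FPKM against 245 to 309 FPKM (-1.43 ± 0.39). The call of Sfrp5 was lost on the TPM scale (adjusted p = 0.0645) and without iWAT library 1 (-1.35, adjusted p = 0.058, limma). Bmp3, a BMP antagonist, was higher in iWAT at 18.1 to 28.3 FPKM against 5.01 to 10.1 FPKM (-1.39 ± 0.21). In retinoid handling, 4 of 19 were higher in eWAT and 8 in iWAT, among them the alcohol dehydrogenase Adh1 (-1.22 ± 0.21). That balance turned on the TPM scale, to 5 in eWAT and 4 in iWAT with a median of 0.11 in place of -0.27, and under quantile normalisation, to 5 and 3.

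Of 21 tested hormone receptors and steroid enzymes 9 were higher in iWAT and none in eWAT, which became 4 and 2 on the TPM scale. Hsd11b1, the enzyme that regenerates active glucocorticoid, was at 7.08, 12.6, 19.5 and 17.2 FPKM in eWAT and 57.8, 41.7, 44.5 and 28.8 FPKM in iWAT (-1.60 ± 0.31). The growth hormone receptor Ghr (-0.97 ± 0.18) and the corticotropin receptor Mc2r (-1.0 ± 0.18) were higher in iWAT. The call of Ghr was lost under quantile normalisation (-0.50, adjusted p = 0.065, limma). The receptors for estrogen and glucocorticoid, Esr1 and Nr3c1, did not pass, with differences of -0.11 ± 0.11 and -0.08 ± 0.24 that turned to 0.17 and 0.35 on the TPM scale. Igf1, insulin-like growth factor 1, was at 13.8 to 33.0 FPKM against 19.2 to 27.3 FPKM and did not pass (-0.11 ± 0.25, 0.32 on the TPM scale).

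Cell division genes were higher in eWAT at low levels. Of 25 tested 23 were higher in eWAT and none in iWAT, with a median of 0.82. Mcm3, of the replicative helicase, was at 8.24, 6.51, 5.12 and 4.65 FPKM against 1.88 to 2.38 FPKM (1.18 ± 0.16), and Bub1b, of the spindle checkpoint, at 1.74 to 2.49 FPKM against 0.402 to 0.651 FPKM (1.01 ± 0.12). Mki67, the proliferation antigen, was at 5.39, 6.68, 1.73 and 1.60 FPKM against 0.755 to 1.5 FPKM (1.10 ± 0.36, adjusted p = 0.038, limma). With eWAT libraries 3 and 4 alone 16 of the 25 were higher, with a median of 0.53, under quantile normalisation 14 and without iWAT library 1 13, and Mki67 was not called (0.40, adjusted p = 0.0765, limma). The call of Mki67 was also lost when any iWAT library or eWAT library 1 or 2 was left out, with adjusted p between 0.057 and 0.10.

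A few genes outside these groups had large differences toward iWAT. Mgst3, a microsomal glutathione transferase, was at 42.1, 44.7, 112 and 124 FPKM against 315 to 387 FPKM (-2.31 ± 0.36). Ifi27l2a, an interferon-induced gene, was at 887 to 1947 FPKM against 5946 to 7291 FPKM (-2.22 ± 0.26). S100b, a calcium-binding protein of glia and adipocytes, was at 0.898 to 3.27 FPKM against 6.18 to 19.1 FPKM (-2.30 ± 0.35). Also in this group were the histone gene Hist1h4h (-2.39 ± 0.47) and the ribosomal protein gene Rpl39l (-2.43 ± 0.21), both with close copies elsewhere that make their counts uncertain. The predicted gene Gm9844 (-2.14 ± 0.56) and Nnat, neuronatin (-2.11 ± 0.65), were further members, and Nnat lost its call on the TPM scale (-1.68, adjusted p = 0.063, limma), under quantile normalisation (-1.63, adjusted p = 0.086), with eWAT libraries 3 and 4 alone (-0.92, adjusted p = 0.098, limma) and without iWAT library 1, 2 or 3 or eWAT library 1 (adjusted p between 0.053 and 0.086).

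Markers of other tissues were compared between the vehicle libraries. Epididymis and testis markers were absent at the level of the filter, with 0 of 27 tested, 15 without a read in the 8 libraries and a summed level of 0.0564 to 1.45 FPKM in eWAT. Skeletal muscle markers had a mean log2 level of 6.07 in iWAT library 4 and 0.90 to 1.05 in the other 7 libraries, and their median difference of -1.21 became 0.02 without that library. Acta1, skeletal actin, was at 529 FPKM there against 8.42 to 28.7 FPKM in the other iWAT libraries. Hepatocyte markers had a mean log2 level of 4.86 in iWAT library 1 and 0.60 to 2.06 in the others, and their median of -0.91 became 0.07 without it. Alb, albumin, was at 217 FPKM there and 2.43 to 25.0 FPKM in the other 7. One member of each list passed, Myl1 (-1.84 ± 0.44) and Serpina1a (-1.41 ± 0.44), and neither did with eWAT libraries 3 and 4 alone (adjusted p = 0.051 and 0.086, limma). Leaving out any single eWAT library also ended the call of Serpina1a (adjusted p between 0.052 and 0.067). Without iWAT library 4, 4114 genes were called between the depots, and without iWAT library 1, 3531.

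The same contrast in the auranofin libraries used other samples of the same depots. There 835 of 13706 genes passed (6.09%), 595 higher in eWAT (4.34%) and 240 in iWAT (1.75%). Of these, 642 were also called in the vehicle libraries in the same direction, which is 76.9% of the genes called under auranofin and 12.6% of those called under vehicle, and 0 were called in opposite directions. Over 13167 genes tested in both, the differences had the same sign in 66%, with a Pearson r of 0.63 and a Spearman rho of 0.50 across genes, which are not independent replicates. The number of calls under auranofin rested on single libraries: it was 118 without iWAT library 3, 233 and 265 without eWAT libraries 4 and 3, 260 without iWAT library 1 and 388 without iWAT library 4. Markers of other tissues were uneven here too. The mean log2 level of the hepatocyte list was 5.30 and 3.56 in eWAT auranofin libraries 2 and 3, against 0.68 to 2.43 in the other 6 auranofin libraries of these depots. That of the skeletal muscle list was 5.42 in iWAT auranofin library 4, against 0.79 to 1.46. Without eWAT auranofin library 2, 828 genes passed. The part of these markers in the contrast was not tested otherwise.

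Patterning, mesothelial and macrophage genes were among those called under both treatments. Hoxc10 was at 0.0692 to 0.488 FPKM in eWAT and 7.55 to 15.3 FPKM in iWAT under auranofin (-3.22 ± 0.20), and Wt1 at 1.42 to 2.64 FPKM against 0 to 0.00686 FPKM (1.57 ± 0.14). Of the 17 mesothelial markers 14 were higher in eWAT under auranofin too, and of the 26 macrophage markers 15. The filter favoured mesothelial markers high in eWAT here as well. Gpnmb was at 86.3, 16.1, 128 and 133 FPKM against 6.46 to 11.8 FPKM (2.83 ± 0.61). Under auranofin 1 of 31 adipocyte genes was higher in iWAT and 0 of 74 oxidative phosphorylation genes passed, with a median of -0.09, where 1.75% of all genes were called higher in iWAT, so these counts lie near that share. Adipoq was at 1368 to 2944 FPKM in eWAT and 1716 to 3251 FPKM in iWAT under auranofin (-0.12 ± 0.34), and Retn at 264 to 530 FPKM against 451 to 954 FPKM (-0.64 ± 0.33).

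**Figure D4:**
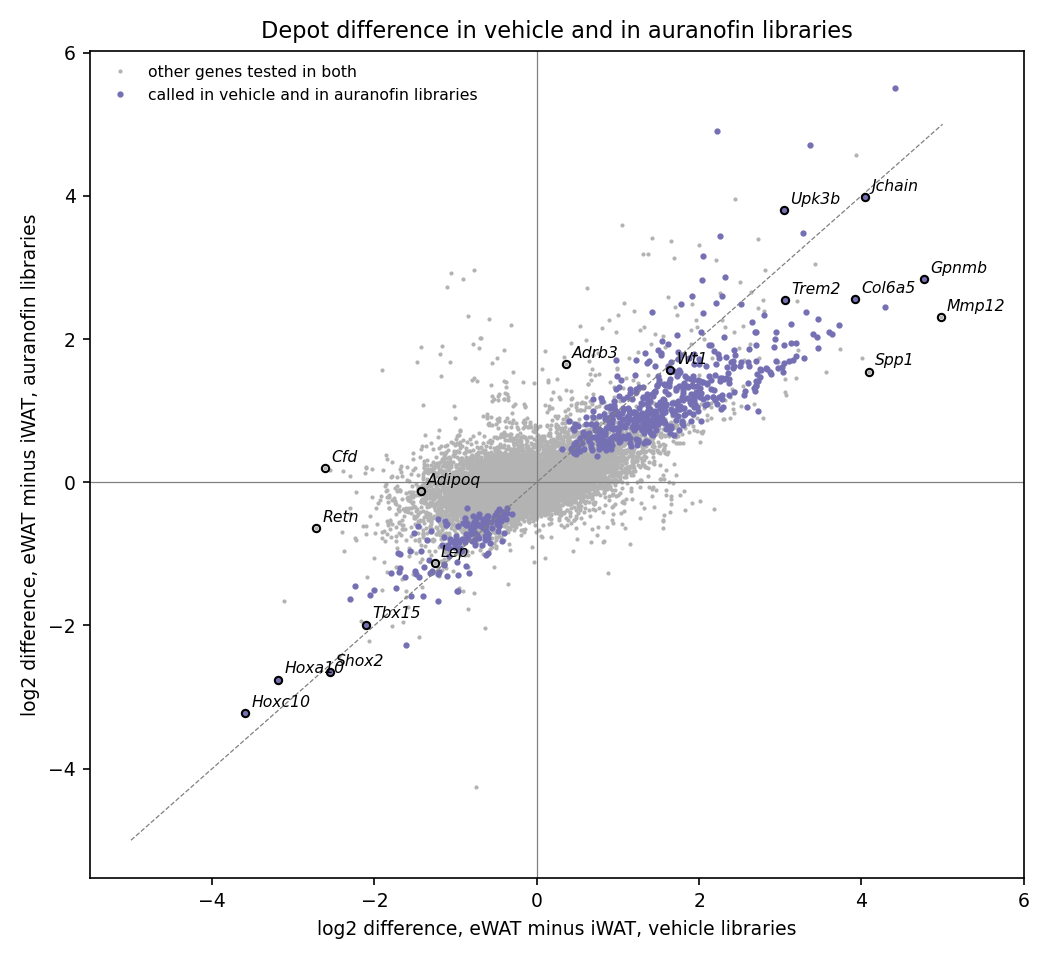
Log2 difference, eWAT minus iWAT, of each gene tested under both treatments, in vehicle libraries (horizontal) and in auranofin libraries (vertical), with the line of equal differences dashed. Coloured points are genes called under both, 642 with the same sign, and circled points are named genes. Hoxc10, Hoxa10, Shox2, Tbx15 and Wt1 lie near the dashed line, while Retn, Cfd and Adipoq lie nearer to 0 on the vertical axis.

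Whether a depot difference itself differed between vehicle and auranofin was tested as an interaction. No gene of 13670 passed (0%, limma), with 3219 at an unadjusted p under 0.05 and a smallest adjusted p of 0.18. The smallest p-values belonged to genes such as Adam19, a metalloproteinase (1.32 in vehicle and 0.24 in auranofin libraries), Pcyt1a, of phosphatidylcholine synthesis (0.59 and -0.10), Pdxk, pyridoxal kinase (0.92 and 0.11), Retn (-2.72 and -0.64), Eid2b (-0.57 and 0.19, its vehicle call lost on the TPM scale) and the predicted gene Gm4459 (-1.41 and -0.11). The result rested on 1 library: without iWAT auranofin library 2, 2020 genes passed, 727 with a difference more toward eWAT in vehicle and 1293 with one more toward iWAT. Of the 74 oxidative phosphorylation genes 63 then passed, all more toward iWAT in vehicle. In that library the mean log2 level of these 74 genes was 6.90, against 5.55 to 5.90 in the other iWAT auranofin libraries, 6.57 to 6.81 in iWAT vehicle and 5.58 to 6.53 in eWAT auranofin. Leaving out eWAT auranofin library 2 or 3 or iWAT auranofin library 4 left the count at 0.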

How the data were processed

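RNA sequencing of total RNA with a non-stranded kit was deposited as 1 table of FPKM values per gene, made by the authors. Per the submitters' processing notes, the build was mm10 and the tools listed were STAR 2.6.1d, DESeq2 1.20.0, featureCounts 1.5.0-p3 and CASAVA, without a role or order. From the FPKM that the authors deposited, log2(FPKM + 1) was computed and tested with limma 3.58.1 (R 4.3.3, intensity trend, Benjamini-Hochberg adjusted p under 0.05) on genes with a mean of 0.5 FPKM or more. The 4 eWAT and 4 iWAT vehicle libraries entered the fit. The auranofin libraries were fitted the same way, and the interaction over all 16. Count models were not used on FPKM, and voom on reads rebuilt to within 0.1 of a whole number was an alternative. Without strand, overlapping and antisense genes cannot be told apart, and near-identical copies are uncertain.

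Members and gene lists (981 entries, 35 lists) were chosen with earlier results of these data known. Named genes are a core list, in each direction the 10 widest differences of protein-coding genes that were called without overlap (mean of 1 FPKM or more in the higher group, then 20 or more), up to 4 members per list and direction with the smallest p, defining members of a list, and 5 genes per direction with the smallest interaction p. Hoxc5, Hoxc6, Hoxc8, Gpc4, Thbd, Slpi, Cd68, Nceh1, C1qc, Spi1, Mitf, Irf5, Ccl3, Cd74, C3, Itgb2, Plin1, Cidea, Cox4i1, mt-Co1, Fn1, Fos, Lpl and the members named for a count of 5 or fewer were chosen after their values were seen. Alternatives were other pseudocounts, filters, scalings, weights and models, a replicate block, a length trend and leaving out each library. The same-numbered libraries showed correlations of deviations of -0.01, 0.21, -0.07 and 0.15, so the numbers were not taken as pairs. Leaving out auranofin libraries was added after seeing the data. The test was also run on simulated data. These had far fewer changed genes than were called here and no libraries that stood apart together, so that run does not vouch for the counts. Some genes of the core list and of the rule are not reported here.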

Additional observations from a re-analysis of the deposited data

Results flagged for a closer look

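In 30 of 310 groups of 4 libraries examined for the named genes, 1 library lay far from the other 3 on the log2 scale by Dixon's criterion at the 95% level. Chance alone does so in about 1 in 20 groups. Values are FPKM of that library. In eWAT library 1 this was found for Gpc4 (10.8), Adam8 (76.1), Ccl2 (60.7), Timp1 (61.4), Zfp423 (5.26) and Egr2 (9.42). In eWAT library 2 this was found for Msln (1.71), Upk1b (6.65), mt-Nd6 (1530), mt-Co1 (23265), mt-Atp6 (80.8), Gm9844 (1.88) and Pcyt1a (10.1). In eWAT library 3 this was found for Hoxc10 (0.788), Hoxa10 (0.697), Hoxa9 (0.462), Lhx8 (0.119) and Aldh1a2 (4.25). In iWAT library 1 this was found for Cox4i1 (714), mt-Atp6 (456), Sfrp5 (309), Alb (217) and Serpina1a (16.8). In iWAT library 2 this was found for Col1a1 (78.5). In iWAT library 3 this was found for Ighm (621) and Mc2r (20.9). In iWAT library 4 this was found for Wt1 (0.0796), Hoxc10 (10.7), Upk3b (1.31) and Myl1 (138). Of these, Upk3b, Myl1 and Wt1 in iWAT library 4 and Alb and Serpina1a in iWAT library 1 were high where the mesothelial, skeletal muscle or hepatocyte list was also highest in that depot. Upk3b, Myl1, Alb and Serpina1a are themselves markers of those tissues, so this match was in part fixed in advance. The part of those tissues in other differences was not tested beyond the values given without the library.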

How the results depend on the processing

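The count of 5085 genes called between the depots was 3531 to 5990 when any 1 library was left out, 1740 to 2864 of them higher in eWAT and 1791 to 3126 higher in iWAT, the lowest of the latter without iWAT library 1. Sample quality weights gave 7841 genes (3749 and 4092), and requiring a log2 difference of 1 gave 1586 (852 and 734). The TPM scale gave 4980 and 925. The labels do not say whether library numbers pair the depots of 1 mouse, and the correlations did not show it for every number. With the replicate block 4551 genes were called (2114 and 2437), and of the named genes Tpsb2 and Scd1 lost their calls. Under auranofin 118 to 890 genes were called without 1 library. The interaction count of 0 became 0 to 2020 without 1 library. It was 1 without eWAT vehicle library 2 and 2020 without iWAT auranofin library 2, and 0 without each of the others. Over 153 named genes, 89 calls were lost, 28 were gained and 14 differences changed sign among the single-setting values, while 3076 were alike. The sign changes were in genes that did not pass, apart from Scd1 (0.05 under quantile normalisation). On the TPM scale and under quantile normalisation they were Ighm at 0.032 and 0.045, Col1a1 at 0.34 and 0.33, Nr3c1 at 0.35 and 0.057, and Igf1 at 0.32 and 0.14. On the TPM scale alone it was Esr1 at 0.17. With 1 library left out, Adrb3 ranged from -0.0888 (without eWAT library 4) to 0.868, Igf1 from -0.312 to 0.0889 (without eWAT library 4) and Nr3c1 from -0.331 to 0.0477 (without eWAT library 3). The cause was not tested. Genes near the filter rest on few reads, so differences there are the least certain.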

Other observations

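Rapidly induced stress-response genes (the immediate-early list) were higher in eWAT in 8 of 24 tested, with 1 higher in iWAT (Nr4a2, -0.31) and a median of 0.35, and 14 and 0 on the TPM scale. Atf3, a stress-induced factor, was at 79.6, 57.3, 24.7 and 36.3 FPKM in eWAT and 2.29, 5.89, 1.56 and 4.33 FPKM in iWAT (3.46 ± 0.41). Egr2 differed by 1.93 ± 0.20 and Fos by 1.75 ± 0.33. Of 18 circadian clock genes 2 were higher in eWAT, Npas2 (0.85) and Bhlhe41 (0.55), and 1 in iWAT, Rora (-0.47), which became 5 and 0 on the TPM scale and 1 and 4 under quantile normalisation. Endothelial and mural markers showed 3 of 28 higher in eWAT, Pdpn (2.36), Lyve1 (1.22) and Abcc9 (0.53), and 1 in iWAT, Gpihbp1 (-1.27), with a median of -0.07 whose sign changed in 7 settings. The counts were 6 and 0 on the TPM scale, and 9 and 1 with eWAT libraries 3 and 4 alone (median 0.22). Pdpn and Lyve1 are known for lymphatic vessels and are also made by other cells.

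Of 7 red blood cell markers none passed with all 8 libraries, and Alas2 was at 1.89 to 10 FPKM in eWAT against 2.10 to 2.55 FPKM in iWAT (0.93 ± 0.35). With eWAT libraries 3 and 4 alone, 5 of the 7 were higher in eWAT. Of 15 tested dendritic, mast and granulocyte markers 4 were higher in eWAT, 11 on the TPM scale and 1 without iWAT library 1. Of 7 Schwann and nerve markers 1 was higher in eWAT (L1cam, 0.42) and 1 in iWAT (S100b). None of 3 skin and mammary markers passed, and 1 of 2 pancreas and gut markers was higher in iWAT, the elastase Cela1, at 12.7 to 26.4 FPKM against 48.3 to 69.3 FPKM (-1.70 ± 0.27). Of 818 annotated transcription factors 155 were higher in eWAT and 81 in iWAT, which became 377 and 19 on the TPM scale. Over all tested genes the shares were 17.5% and 19.9%, and 36.7% and 6.81% on the TPM scale. The eWAT count on the authors' scaling lies near its share and gives no result about these factors. On the TPM scale the eWAT count lies above its share. The iWAT counts lie below their shares on both scales, and the cause was not tested. Of 56 homeobox genes 10 were higher in eWAT and 15 in iWAT, which turned to 15 and 8 on the TPM scale (median 0.20 in place of -0.14).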
